A study of Mus musculus with 6 samples.

Results

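The transcripts of the mitochondrial genome were examined in cultured mouse fat cells that were labelled wild type or knockout for Ythdf1, a gene whose cytoplasmic protein binds RNA carrying the m6A methyl mark. The genes were all rows of the count table whose symbol starts with mt-, which gave 37 of 53801 genes: 13 that encode proteins, 2 that encode ribosomal RNA and 22 that encode transfer RNA. Stromal vascular fraction (SVF) cells, the mixed non-adipocyte cells of fat tissue, were taken from the inguinal white fat of mice of either genotype and driven towards adipocytes in vitro over 4 days. Total RNA depleted of ribosomal RNA was sequenced in paired reads of 150 bases from 3 libraries of each genotype, which the series describes as biological replicates, with 16619605 to 20089138 counts per library. The labels do not give the age or sex of the mice, the part of Ythdf1 that was removed or the cells in which it was removed.

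The mitochondrial genome is a small circular DNA in which genes lie almost end to end on both strands. Each strand is copied into long precursor RNA from start sites in a control region that holds no genes, and the tRNAs that separate the other genes are the places where the precursor is cut. The proteins are core subunits of respiratory complexes I, III, IV and V, which are finished with subunits encoded in the nucleus, and the rRNAs and tRNAs serve the ribosome inside the mitochondrion. Adipocytes use these complexes while they make and burn fat, and brown and beige adipocytes are rich in them.

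The targeted gene Ythdf1 had 820, 754 and 892 counts in knockout versus 1114, 1005 and 1056 in wild type (0.709-fold, edgeR adjusted p = 0.000378); most of its RNA remained, and the labels were checked only in part. Levels are given as CPM, counts relative to the scaled total of the library unless stated. Marker levels also moved with genotype, where 22.6% of all genes tested were higher in knockout and 21.7% lower. All 10 markers of mature adipocytes were higher in knockout, with a summed level of 12152 to 17010 CPM against 2096 to 3299 CPM in wild type. Of 10 markers of progenitors and fibroblasts 7 were lower and 0 higher, with sums of 16417 to 17693 against 36722 to 40287 CPM. Of 10 macrophage markers 9 were higher, with sums of 784 CPM in knockout replicate 3, 292 and 293 CPM in knockout replicates 1 and 2, and 89.96 to 163 CPM in wild type, and none was at 0. Of 8 tested gut epithelium markers 7 were lower, with sums of 24.9 to 29.1 against 46.5 to 55.5 CPM, and Cdx2, too low to test, was at 0 in knockout. Most of the knockout sum came from Muc2 (mean 13.8 against 17.3 CPM) and Lgals4 (10.9 against 8.55 CPM, not called). Epcam, Cdh1, Vil1, Krt8, Krt20 and Pigr averaged 0.07 to 0.62 CPM in knockout and 1.43 to 7.46 CPM in wild type. The part of these cell mixtures in the differences of mitochondrial RNA was not tested.

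Of 9 mitochondrial genes with at least 1000 counts in every library, 8 were higher in knockout cultures, as were 22.6% of all genes tested. The 12S ribosomal RNA gene mt-Rnr1 and the proline tRNA gene mt-Tp had log2 fold changes of 1.62 and 1.83, the messenger RNAs called in high counts had 0.33 to 0.77, and mt-Nd1 did not pass the test at 0.10. All mitochondrial rows together took 2.48%, 2.41% and 2.29% of the counts of knockout replicates 1, 2 and 3, compared with 1.57%, 1.60% and 1.53% of those of wild-type replicates 1, 2 and 3. Every knockout library lay above every wild-type library. In bulk RNA, more cells of a type and more mitochondrial RNA per cell cannot be told apart.

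Of the 37 genes, 18 passed the filter on low counts, and 13 of these were higher and 0 lower in knockout. The test was edgeR's quasi-likelihood F test, and a gene was called where its p, adjusted by Benjamini-Hochberg over 14816 genes, was under 0.05. Of all genes tested, 22.6% were higher and 21.7% lower, 44.3% in either direction. The median log2 fold change of the 18 was 0.64, against 0.01 for all genes tested. These 18 are not a neutral choice: mt-Co2, mt-Co3, mt-Nd4l and mt-Th reached the filter level in each knockout library but not in each wild-type library. Of the 5 that did not pass, mt-Nd1 has many counts, and mt-Co2, mt-Atp6, mt-Th and mt-Tc have few. Without knockout replicate 3, 13 genes were called higher, of which 12 were among the 13 above: mt-Nd4l lost its call and mt-Tc gained one. DESeq2 called 13 higher and 0 lower, also with 12 shared: mt-Nd4l was lost and mt-Tq, too low to test in edgeR, was gained (DESeq2 adjusted p = 0.0317). For 14 of the 18 each knockout library lay above each wild-type library, as for 27.9% of all genes tested.

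Much of the mitochondrial genome has a copy in nuclear DNA, and the rows of the genes copied most exactly held few counts. Pseudogenes on the minus strand of chromosome 1 (GRCm38) carry the sequence of mt-Co2, mt-Atp6, mt-Co3, mt-Nd3 and mt-Nd4l, and part of mt-Co1 and mt-Nd4. Gm28661 (24614885 to 24615565) matched mt-Co2 over 681 bases with 0 mismatches, and Gm28437 (24613189 to 24613971) matched mt-Co3 over 783 bases with 0. Gm10925 (24613974 to 24614651) matched mt-Atp6 over 678 bases with 0 mismatches. A second copy of mt-Co2, Gm13341 on chromosome 2, was 95.9% identical. The copy with the highest level was its neighbour Gm13340 (22588103 to 22589647), which matched mt-Co1 over 1545 bases at 97.6% identity. Gm13340 averaged 4.60 CPM of the deposited total counts in knockout versus 2.69 CPM in wild type. The following stretch of 60 bases is shown because it is where mt-Co2 and Gm13341 differ most, with the 6 differing bases in capitals, and because Gm28661 has the mitochondrial base at each of them. The sequences are from the GENCODE M21 transcripts on GRCm38, 5′ to 3′ in the sense of the gene.
mt-Co2, chrM:7457-7516, plus strand: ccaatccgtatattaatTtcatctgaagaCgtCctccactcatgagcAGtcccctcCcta
Gm28661, chr1:24615062-24615121, minus strand: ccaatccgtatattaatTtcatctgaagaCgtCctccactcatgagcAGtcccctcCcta
Gm13341, chr2:22587471-22587530, minus strand: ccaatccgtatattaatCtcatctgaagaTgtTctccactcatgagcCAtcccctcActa

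A read from such a stretch fits the mitochondrial gene and Gm28661 equally well, and the sources used here do not say how reads with several matches were counted. For mt-Co1, the match with Gm29216 starts at base 1054 of the gene. Over 492 aligned bases there were 6 differences, all near that start, and the last of them was A1066T (position counted from the first base of mt-Co1, mitochondrial base first). For mt-Nd3, the 345 bases aligned with Gm28438 held 1 difference, T3C, counted from the first base of mt-Nd3. The starts of these matches are shown with the differing bases in capitals.
mt-Co1, chrM:6381-6440, plus strand: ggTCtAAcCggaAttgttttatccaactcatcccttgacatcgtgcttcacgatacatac
Gm29216, chr1:24616138-24616197, minus strand: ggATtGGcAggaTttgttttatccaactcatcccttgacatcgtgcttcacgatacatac
mt-Nd3, chrM:9459-9518, plus strand: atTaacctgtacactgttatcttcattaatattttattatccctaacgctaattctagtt
Gm28438, chr1:24613060-24613119, minus strand: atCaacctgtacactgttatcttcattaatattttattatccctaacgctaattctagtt

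The share of each gene's 150-base windows, the read length, that occurs in an annotated nuclear copy differed between genes. It was 99.4% for mt-Co2, 99.4% for mt-Atp6, 99.8% for mt-Co3, 98.0% for mt-Nd4l and 97.0% for mt-Nd3, and these genes were at 1.07 to 17.4 CPM per kb in wild type. It was 0% for mt-Nd1, mt-Nd2, mt-Nd5, mt-Nd6, mt-Cytb and both rRNA genes, which were at 426 to 1894 CPM per kb in wild type. Levels in CPM per kb are divided by gene length so that genes can be compared. For mt-Co1 the shared part was 23.6% and for mt-Nd4 59.2%, and how much of each gene their counts cover is not known. The counts of the nuclear copies themselves were low: Gm28661 was at 31, 53 and 41 counts in knockout versus 15, 27 and 14 in wild type.

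**Figure D1:**
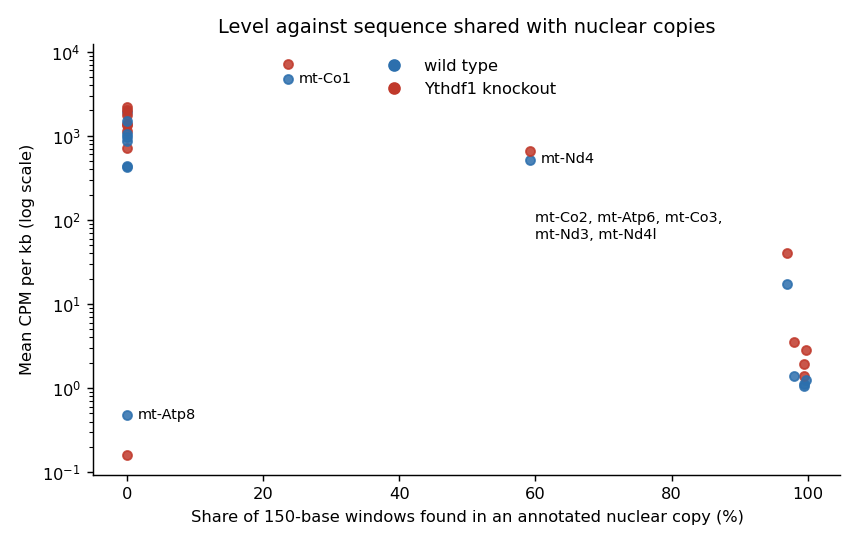
Mean level of each mitochondrial gene of at least 150 bases (CPM per kb, log axis; blue wild type, red knockout, n = 3 each) against the share of its 150-base windows that occur in an annotated nuclear copy. The 5 genes with shares of 97.0% to 99.8% lie far below the others, except for mt-Atp8, which has no annotated copy and was also near 0. Unannotated DNA was not searched, so the share of mt-Atp8 counts annotated copies alone.

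The smaller ATP synthase gene mt-Atp8 had 0, 0 and 2 counts in knockout versus 3, 2 and 0 in wild type. It lies between mt-Co2 and mt-Atp6, overlaps the latter by 43 bases, and no annotated pseudogene of it was found. Only annotated transcripts were searched for copies. On chromosome 1 the copies of its neighbours, Gm10925 and Gm28661, end at 24614651 and start at 24614885. The DNA between them was not searched. The other mitochondrial gene of complex V, the ATP synthase, is mt-Atp6, which had 22, 13 and 18 counts in knockout versus 10, 16 and 13 in wild type (log2 fold change 0.30 ± 0.40 SE, adjusted p = 0.575 in edgeR). For complex IV, mt-Co2 had 23, 27 and 24 counts in knockout versus 9, 19 and 9 in wild type (edgeR adjusted p = 0.116, and 0.0399 without wild-type replicate 2), and mt-Co3 had 48, 47 and 29 against 23, 17 and 10. The call for mt-Co3 (edgeR adjusted p = 0.028) was lost without knockout replicate 1 (0.098) or 2 (0.081) or wild-type replicate 2 (0.0638) or 3 (0.095). That of mt-Nd4l (14, 18 and 27 against 9, 7 and 5 counts, adjusted p = 0.027 in edgeR) was lost under DESeq2 (0.098). It was also lost with no low-count filter (0.0529), with the replicate number as a block (0.0599) and in 4 of the 6 fits that left out a library.

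The first complex I gene on the plus strand, mt-Nd1 (chrM:2751-3707), had levels of 2002, 2026 and 1792 CPM in knockout versus 1800, 1874 and 1762 CPM in wild type. Its genotypes overlapped, and its log2 fold change was 0.10 (95% interval -0.12 to 0.32, edgeR adjusted p = 0.460). The other complex I genes with many counts were separated by genotype. The membrane subunit gene mt-Nd2 was at 1237, 1199 and 1126 CPM in knockout against 866, 924 and 890 in wild type, with a log2 fold change of 0.41 ± 0.10 (SE, edgeR adjusted p = 0.00467). The gene mt-Nd5 was at 2702, 2430 and 2433 CPM against 1702, 1820 and 1712 (0.53 ± 0.10, edgeR adjusted p = 0.00129). Least of the genes called was mt-Nd4, which, with 59.2% of its windows in Gm28439, was at 928, 921 and 841 CPM against 707, 739 and 693. Its log2 fold change of 0.33 ± 0.10 (edgeR adjusted p = 0.0147) lost its call without knockout replicate 1 (0.0728) or wild-type replicate 2 (0.0506).

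The subunit gene mt-Nd6 (chrM:13552-14070) is the protein-coding gene on the minus strand, while the other 12 lie on the plus strand. It was at 918, 1042 and 804 CPM in knockout versus 532, 542 and 546 CPM in wild type, so that the genotypes did not overlap. The log2 fold change was 0.77 ± 0.11 (edgeR adjusted p = 0.000188). As a share of the plus-strand protein-coding counts it was 4.32%, 5.07% and 4.26% in knockout versus 3.81%, 3.70% and 3.94% in wild type. The strand setting of the counting is not given, so the mt-Nd6 row may hold reads of either strand.

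Cytochrome b, the mitochondrially encoded subunit of complex III, was at 2716, 2659 and 2181 CPM in knockout versus 1683, 1767 and 1675 CPM in wild type (mt-Cytb, log2 fold change 0.56 ± 0.11, edgeR adjusted p = 0.00185). The catalytic subunit gene of complex IV, mt-Co1, was the most abundant mitochondrial row in each library, at 11668, 11294 and 10498 CPM in knockout against 7209, 7533 and 7115 CPM (0.61 ± 0.10, edgeR adjusted p = 0.000633). Both were above every wild-type library in each knockout library.

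**Figure D2:**
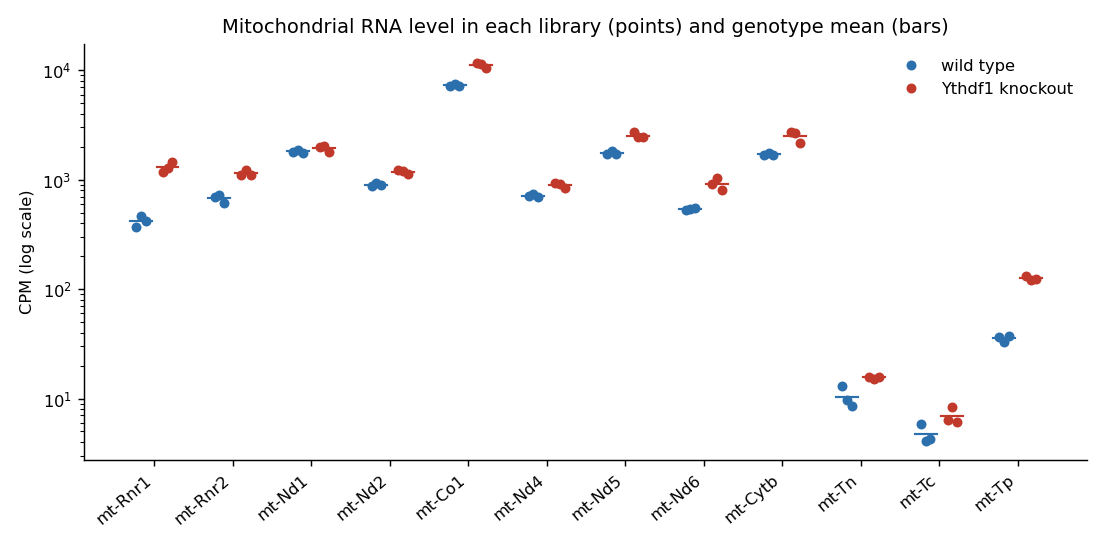
CPM on a log axis of the 12 mitochondrial genes that had over 60 counts in every library and under 60% of their windows in a nuclear copy, for each of 3 wild-type (blue) and 3 knockout (red) libraries, with bars at the means. The genotypes overlap for mt-Nd1 alone, and the gap between them is widest for mt-Rnr1 and mt-Tp.

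Both ribosomal RNAs rose. The small-subunit gene mt-Rnr1 (chrM:70-1024) was at 1185, 1268 and 1441 CPM in knockout versus 371, 470 and 423 CPM in wild type, 3.08-fold higher (log2 fold change 1.62 ± 0.12, edgeR adjusted p = 1.87e-06). The large-subunit gene mt-Rnr2 (chrM:1094-2675), which follows it on the same strand, was at 1097, 1238 and 1105 CPM against 688, 722 and 612, 1.70-fold higher (0.77 ± 0.11, edgeR adjusted p = 0.000143). Per kb, mt-Rnr1 was 1.79, 1.70 and 2.16 times mt-Rnr2 in knockout and 0.892, 1.08 and 1.14 times in wild type, without overlap. Ribosomal RNA was removed before library preparation, and whether that step took mitochondrial rRNA is not given in the labels. Nuclear genes annotated as rRNA took 0.0203% to 0.0273% of counts in 5 libraries and 0.143% in wild-type replicate 2. The levels of mt-Rnr1 and mt-Rnr2 in that library were the highest of the wild-type libraries and still below each knockout library. The part of rRNA removal in these differences was not tested.

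Most tRNA rows held almost no counts, which limits what can be said of this class. Of 22, mt-Tf, mt-Ts1, mt-Td, mt-Tk and mt-Tt had 0 counts in all 6 libraries, and 18 in all were too low to test. Mature mitochondrial tRNAs are shorter than a read of 150 bases. The rows with more than 27 counts in any library were mt-Tn and mt-Tc, for asparagine and cysteine, and mt-Tp, for proline. All 3 lie on the minus strand and border a stretch without genes: 32 bases lie between mt-Tn and mt-Tc, and mt-Tp is the last gene before the control region. On the other side of the control region lies mt-Tf, which had 0 counts. Their sequences are shown, from the GENCODE M21 transcripts on GRCm38, because these are the tRNA rows with the most counts, with the anticodon in capitals.
mt-Tp, chrM:15356-15422, minus strand: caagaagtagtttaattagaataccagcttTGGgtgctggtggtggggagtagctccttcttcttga
mt-Tn, chrM:5089-5159, minus strand: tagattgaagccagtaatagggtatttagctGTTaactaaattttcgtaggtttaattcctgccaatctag
mt-Tc, chrM:5192-5257, minus strand: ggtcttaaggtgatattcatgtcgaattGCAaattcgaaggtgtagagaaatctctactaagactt

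The row of mt-Tp had 2401, 2136 and 2546 counts in knockout versus 639, 533 and 650 in wild type. In CPM these were 132, 121 and 124 against 36.1, 32.9 and 37.1, and the genotypes lay far apart. The fold was 3.55 (log2 fold change 1.83 ± 0.09, edgeR adjusted p = 1.37e-07), which was the highest among the mitochondrial genes tested. This row alone made up 60.9% to 83.4% of the tRNA counts of a library, so a sum over tRNAs mostly repeats it.

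The other tRNA rows that could be tested were lower in counts. The asparagine tRNA row mt-Tn was at 15.7, 15.2 and 15.7 CPM in knockout versus 12.9, 9.76 and 8.52 in wild type (log2 fold change 0.58 ± 0.16, edgeR adjusted p = 0.010). The cysteine tRNA row mt-Tc was at 6.32, 8.41 and 6.14 CPM against 5.88, 4.08 and 4.23, just short of the threshold (0.55 ± 0.21, edgeR adjusted p = 0.051). It passed in 5 of 16 alternative fits. The histidine tRNA row mt-Th had 11, 27 and 23 counts against 15, 5 and 15, and its genotypes overlapped (edgeR adjusted p = 0.285). Among the rows too low to test in edgeR, the glutamine tRNA row mt-Tq had 8, 15 and 11 counts in knockout versus 2, 2 and 1 in wild type, and the serine tRNA row mt-Ts2 10, 10 and 10 versus 4, 4 and 6. With no low-count filter mt-Tq passed (edgeR adjusted p = 0.0112). These were the untested rows in which each knockout library had more counts than each wild-type library. The others with any count, mt-Tv, mt-Tl1, mt-Ti, mt-Tm, mt-Tw, mt-Ta, mt-Ty, mt-Tg, mt-Tr, mt-Tl2 and mt-Te, had at most 22 counts in a library.

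**Figure D3:**
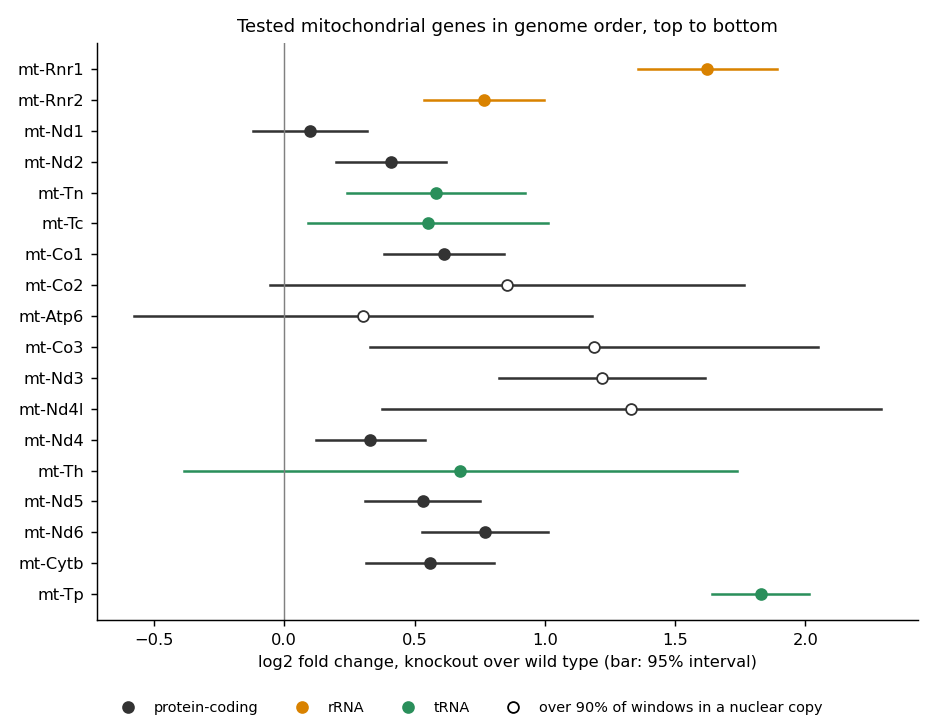
Log2 fold change of knockout over wild type with its 95% interval for the 18 mitochondrial genes tested, in genome order from top to bottom, coloured by class. Open points have over 90% of their windows in a nuclear copy and wide intervals; mt-Rnr1 at 1.62 and mt-Tp at 1.83 stand to the right of the other genes with many counts.

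By class, protein-coding rows summed to 22191, 21592 and 19691 CPM in knockout versus 14510, 15210 and 14402 CPM in wild type, a ratio of the means of 1.44. The rRNA rows summed to 2282, 2506 and 2546 CPM against 1059, 1191 and 1035 CPM, a ratio of 2.23. The tRNA rows summed to 158, 151 and 150.3 CPM against 59.3, 49.1 and 52.9 CPM, a ratio of 2.85, and 1.5 without mt-Tp. No class overlapped between genotypes. Of all genes tested, 27.9% lay wholly above wild type in knockout and 27.3% wholly below. Ribosomal RNA made up 9.26%, 10.3% and 11.4% of mitochondrial counts in knockout versus 6.78%, 7.24% and 6.68% in wild type. These sums were not tested, since they are scores over the chosen genes.

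By strand, the 28 plus-strand genes summed to 23558, 23061 and 21435 CPM in knockout versus 15040, 15861 and 14893 CPM in wild type, a ratio of 1.49. The 9 minus-strand genes summed to 1073, 1189 and 951 CPM against 588, 589.6 and 597 CPM, a ratio of 1.81. These sums were made almost wholly by mt-Nd6 and mt-Tp. Some provisional single-exon genes of the annotation lie inside an intron of an expressed gene. The counts of each were summed over the 6 libraries and divided by its length. The median over genes was 4.09 counts per kb for 646 on the strand of the host and 2.99 for 82 on the opposite strand. For 235 and 398 processed pseudogenes it was 8.93 and 7.82 counts per kb. The 2 long intergenic RNA genes on the host strand had a median of 85.6 counts per kb and the 2 on the opposite strand 8.55. The strand setting of the counting is not given, the rows of mt-Nd6 and mt-Tp may hold reads of either strand, and the comparison of strands is one of annotated rows.

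To ask which genes differed from mitochondrial messenger RNA as counted, the fit was repeated with another size for each library. That size was the counts of the 13 protein-coding mitochondrial genes. Of these counts mt-Co2, mt-Atp8, mt-Atp6, mt-Co3, mt-Nd3 and mt-Nd4l each gave at most 0.08% in any library, so the remaining genes set the size. In that fit 3 of the 18 genes were higher and 1 lower, where 8.91% of all genes were higher and 58.0% lower, and the median of all genes was -0.51. The gene mt-Tp was higher by 1.30 ± 0.11 on the log2 scale (edgeR adjusted p = 5.29e-08) and mt-Rnr1 by 1.11 ± 0.14 (3.17e-06). The third was mt-Nd3, at 0.69 ± 0.18 (0.00231), whose 262, 304 and 223 counts in knockout versus 114, 98 and 100 in wild type come from a gene with 97.0% of its windows in Gm28438. The lower gene was mt-Nd1, at -0.43 ± 0.12 (edgeR adjusted p = 0.00424).

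Relative to messenger RNA, mt-Rnr2 and mt-Nd6 were at 0.25 ± 0.12 and 0.24 ± 0.12 (edgeR adjusted p = 0.082 and 0.081). With mt-Co1, which holds 49.4% to 53.3% of these counts, left out of the library size both passed, at 0.34 (0.0252) and 0.34 (0.0236), which raised the number of higher genes to 5. The 4 calls of the first fit were also made in each fit that left out a library, and mt-Nd6 passed without knockout replicate 3 (0.29, edgeR adjusted p = 0.0328). For mt-Rnr1 the value ran from 0.97 to 1.21, for mt-Nd1 from -0.44 to -0.41.

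The composition of mitochondrial messenger RNA, as counted, differed between the genotypes. In these counts mt-Co2, mt-Atp8, mt-Atp6, mt-Co3, mt-Nd3 and mt-Nd4l were almost absent, each at most 0.08% in any library. The share of mt-Nd1 in the protein-coding counts was 9.02%, 9.38% and 9.10% in knockout versus 12.4%, 12.3% and 12.2% in wild type. The share of mt-Co1 was 52.6%, 52.3% and 53.3% against 49.7%, 49.5% and 49.4%. Shares of mt-Nd2 and mt-Nd4 were lower in each knockout library, at 5.61% ± 0.0900 against 6.08% ± 0.105 and 4.24% ± 0.0493 against 4.85% ± 0.0336 (SD, n = 3). The share of mt-Nd6 was higher, at 4.35% ± 0.414 against 3.67% ± 0.115, and those of mt-Nd5 and mt-Cytb overlapped. Without the genes that share windows with a nuclear copy, mt-Nd1 held 20.9%, 21.7% and 21.5% of the rest in knockout versus 27.3%, 27.1% and 26.8% in wild type, while mt-Nd2 overlapped between genotypes. In that set mt-Cytb was separated, at 28.4%, 28.4% and 26.2% in knockout against 25.6%, 25.5% and 25.4%.

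**Figure D4:**
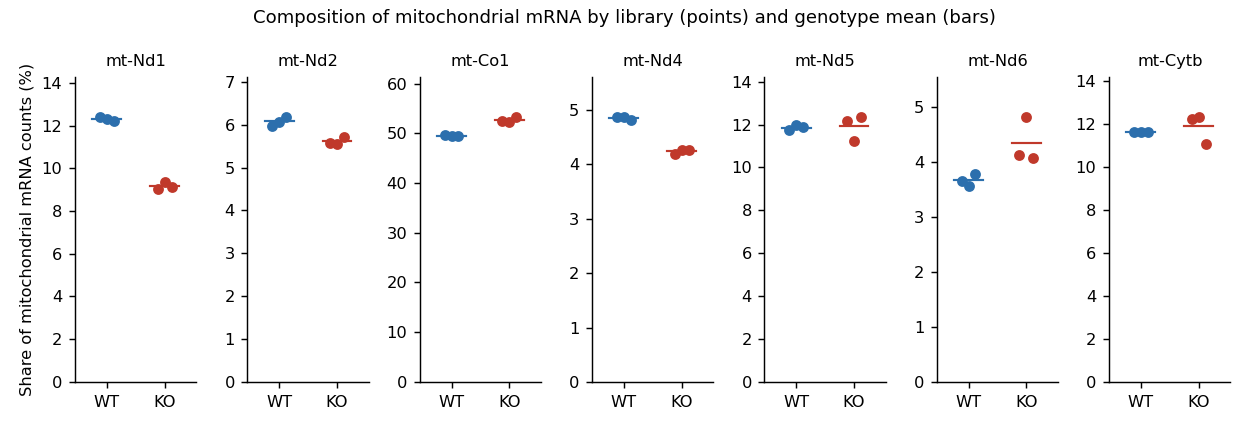
Share of each of 7 messenger RNAs in the counts of the 13 protein-coding mitochondrial genes (percent, each axis from 0), for 3 wild-type (WT, blue) and 3 knockout (KO, red) libraries with bars at the means. The share of mt-Nd1 was 9.02% to 9.38% in knockout and 12.2% to 12.4% in wild type.

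Per length, the order of levels in wild type began with mt-Co1 at 4716 CPM per kb and mt-Nd1 at 1894, followed by mt-Cytb at 1494, mt-Nd6 at 1041, mt-Nd5 at 957 and mt-Nd2 at 861. Then came mt-Tp at 528, mt-Nd4 at 517, mt-Rnr1 at 441 and mt-Rnr2 at 426. This is an order of counted rows and may not be that of the transcripts. Nuclear copies hold 23.6% of the 150-base windows of mt-Co1 and 59.2% of those of mt-Nd4, and rRNA was depleted. The row of mt-Tp spans 67 bases, less than a read, so its level per kb may not compare with those of longer genes. Genes almost wholly shared with a copy, among them mt-Co2, mt-Co3 and mt-Atp6, had few counts and are left out. In knockout mt-Cytb stood above mt-Nd1, at 2201 and 2027 CPM per kb. The ratio of mt-Nd1 to mt-Cytb per kb was 0.881, 0.911 and 0.983 in knockout versus 1.28, 1.27 and 1.26 in wild type, so this exchange of places held in each library. The levels of mt-Rnr1 and mt-Rnr2 in wild type were not separated, as their ratio lay on both sides of 1 among libraries.

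Of the nuclear partners of these proteins most rose. Of 74 nuclear genes of complexes I, III, IV and V, all tested, 66 were higher and 1 lower, against 22.6% and 21.7% of all genes, with a median log2 fold change of 0.97. In complex III all 9 genes rose, with a median of 1.18, among them the cytochrome c1 gene Cyc1 (1.85), the Rieske protein gene Uqcrfs1 (1.69), the core genes Uqcrc1 (1.65) and Uqcrc2 (1.44), Uqcr10 (1.18), Uqcr11 (1.09), Uqcrq (1.02), Uqcrb (0.92) and Uqcrh (0.68). Their mitochondrial partner mt-Cytb rose by 0.56. All 12 genes of complex IV rose (median 1.02), led by Cox7a1 (2.11), the heart and muscle form of its subunit, and Cox5a (1.41).

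Of 37 complex I genes 33 rose and 0 fell, where 22.6% and 21.7% of all genes did. The median was 1.03, and the largest rises were those of Ndufv1 (1.67), which binds NADH, and Ndufa10 (1.43). The most abundant of those that did not pass were Ndufa7 and Ndufa2, at 0.20 and 0.48 (edgeR adjusted p = 0.299 and 0.112). Without knockout replicate 3 both passed, at 0.34 (0.0366) and 0.67 (0.00687), and Ndufa2 also passed under DESeq2 (0.0424), with the replicate block (0.0172) and with no low-count filter (0.0015). Of 16 complex V genes 12 rose (median 0.80), led by the genes of the catalytic head Atp5b (1.33) and Atp5a1 (1.12). Atpif1, the inhibitor of the enzyme, fell by 0.49 on the log2 scale, and Atp5g2 and Atp5j were at 0.11 and 0.09 (edgeR adjusted p = 0.353 and 0.574).

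In the fit relative to mitochondrial messenger RNA, 43 of the 74 nuclear genes were higher and 4 lower, where 8.91% and 58.0% of all genes were. The median was 0.45 on the log2 scale. By complex the higher genes were 19 of 37 for I, 8 of 9 for III, 10 of 12 for IV and 6 of 16 for V. Cyc1 was 1.32 ± 0.12 above mitochondrial messenger RNA (edgeR adjusted p = 1.35e-07) and Uqcrh 0.16 ± 0.14 (0.340).

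**Figure D5:**
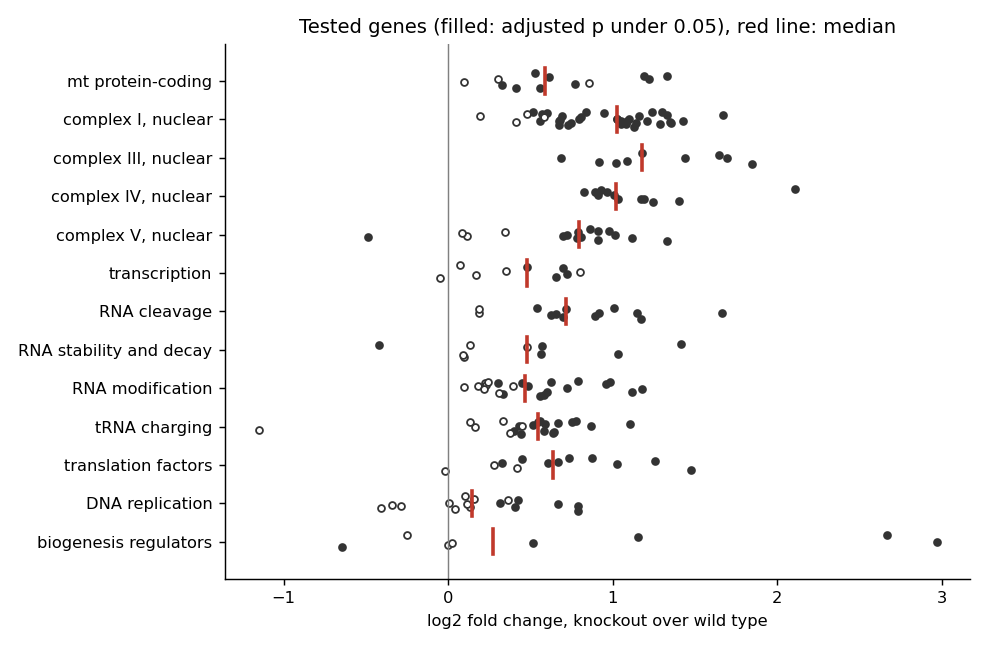
Log2 fold change of knockout over wild type for each tested gene of 13 groups (filled points passed an adjusted p of 0.05, open points did not), with the median in red. Among the nuclear groups the median was highest for complex III, at 1.18, and lowest for DNA replication, at 0.15.

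Many genes whose proteins copy, process and translate mitochondrial RNA were also higher. Over 7 lists with 102 genes, all tested, 63 were higher and 1 lower, against 22.6% and 21.7% of all genes, with a median log2 fold change of 0.50. Relative to mitochondrial messenger RNA 15 were higher and 18 lower, where 8.91% and 58.0% of all genes were. With mt-Co1 left out of the library size 24 were higher and 15 lower. The shares of all genes in that last fit are not given. Among 9 transcription genes 4 rose: the RNA polymerase gene Polrmt was at 23.5 ± 1.78 CPM in knockout versus 14.3 ± 2.40 in wild type (0.72), the elongation factor gene Tefm had 0.70, Mterf4 0.66 and Tfam, whose protein packs the DNA and starts transcription, 0.48. The initiation factor gene Tfb2m had 0.35 (edgeR adjusted p = 0.0979), and passed without knockout replicate 3 (0.49, 0.0141). Of the termination factor family, Mterf1a, Mterf1b, Mterf2 and Mterf3 had 0.17, 0.80, -0.05 and 0.07 and did not pass.

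For cleavage of the precursor 11 of 13 genes rose and 0 fell, where 22.6% and 21.7% of all genes did. The median was 0.72, and the largest rises were those of Fastkd1 (1.67), an RNA-binding protein gene, and Ptcd2 (1.18). Ptcd1 and Fastkd3, each at 0.19, did not pass (edgeR adjusted p = 0.213 and 0.328). In the list of stability, tailing and decay 4 of 9 rose. Lrpprc, which holds messenger RNAs stable, was at 89.2 ± 10.7 CPM against 33.5 ± 4.00 (1.41). The helicase gene Supv3l1 (1.03) and the nuclease gene Pnpt1 (0.57), which degrade mitochondrial RNA together, rose, as did the poly(A) polymerase gene Mtpap (0.56). The oligonucleotide nuclease gene Rexo2 fell by 0.42 on the log2 scale, and Slirp, the partner of Lrpprc, had levels of 1.72 ± 0.703 and 1.22 ± 0.0987 CPM in knockout and wild type (edgeR adjusted p = 0.306). Pde12, Angel2 and Trnt1 stood at 0.10, 0.13 and 0.09, without a call.

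Of 22 rRNA and tRNA modification genes 14 rose and 0 fell, where 22.6% and 21.7% of all genes did. The largest rises were those of the rRNA methyltransferase gene Mrm3 (1.18) and Rpusd3 (1.12). Trub2 (0.40) and Alkbh1 (0.10) did not pass (edgeR adjusted p = 0.0507 and 0.493), though Trub2 did without knockout replicate 1 (0.53, 0.0208). Of 21 genes for tRNA charging 15 rose and 0 fell (median 0.55), led by the phenylalanine and asparagine enzyme genes Fars2 (1.10) and Nars2 (0.87). Lars2 had 6153 counts in wild-type replicate 2, where nuclear rRNA was also highest, and 1083 to 1624 in the other libraries. Its log2 fold change was -1.15 (edgeR adjusted p = 0.373) and turned to 0.29 without that library. Of 12 translation factors 9 rose and 0 fell, led by the elongation factor gene Gfm1 (1.48) and Taco1 (1.26), an activator of mt-Co1 translation, while Tsfm (0.42, edgeR adjusted p = 0.0693) and Mtrf1l (-0.02) did not pass. Tsfm passed in 5 of 16 alternatives, among them the replicate block (0.40, edgeR adjusted p = 0.0478) and the fits without knockout replicate 1 (0.54, 0.0389) or 3 (0.49, 0.0447).

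Replication of mitochondrial DNA was the list with the lowest share of calls among these 7: 6 of 16 rose and 0 fell, where 22.6% and 21.7% of all genes did, with a median of 0.15. Mgme1, a nuclease gene, and Polg2, the accessory subunit gene of the DNA polymerase, each rose by 0.79 on the log2 scale. Ssbp1, which covers single-stranded DNA, and Mpv17 had 0.01 and 0.10 and did not pass. The count was 3 of 16 without knockout replicate 1 or wild-type replicate 2, and 1 gene was lower without knockout replicate 3. Shares of all genes are not given for those fits, so these counts have no background beside them. Mitochondrial DNA itself was not measured.

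Of 8 regulators of mitochondrial biogenesis 4 rose and 1 fell, where 22.6% and 21.7% of all genes did. Those that rose were the coactivator genes Ppargc1a (log2 fold change 2.97) and Ppargc1b (2.67), the nuclear receptor gene Esrra (1.16) and the corepressor gene Nrip1 (0.52). The related coactivator gene Pprc1 fell by 0.64 on the log2 scale. The transcription factor genes Nrf1, Gabpa and Gabpb1, which act on many nuclear genes of respiration, stood at -0.25, -0.00 and 0.02 without a call (edgeR adjusted p = 0.154, 0.977 and 0.881).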

How the data were processed

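RNA of 6 libraries was analysed, 3 per genotype. The authors deposited raw counts per Ensembl gene, and the submitters' processing notes name STAR, featureCounts, mm10 and GRCm38. Versions, the annotation, the strand setting and how multimapping reads were counted are not stated in those sources. Symbols and coordinates came from GENCODE M21, which held 53706 of 53801 identifiers. Low genes were removed by filterByExpr (at least 10 counts, total of at least 15), and the 14816 left were scaled with TMM and tested with edgeR 4.0.16 in R 4.3.3 (robust quasi-likelihood F test, legacy setting, 2-sided) with genotype as the single term. CPM use the TMM-scaled totals of the genes kept, except those of nuclear copies and of the floor, which use the deposited total counts. A floor of 3 counts is 0.149 to 0.181 CPM, for counting error only. Libraries of the same genotype were distinct (chi-square per degree of freedom 9.30 to 23.9). P-values cover the spread between these replicates and no difference in culture or preparation that coincided with genotype.

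The genes and lists were chosen with earlier results of these data known. Named were all mt- genes, every member of nuclear lists of up to 9 genes, and of longer lists the 2 called genes with the largest rise, the 2 with the largest fall and the 2 most abundant not called. One gene named by this rule is not reported here. Nuclear copies of at least 1 CPM on average were described, and Gm28438 and Gm28439 were added after values were seen, as were mt-Tq and mt-Ts2 as examples, the fit relative to mitochondrial mRNA and its alternatives. Copies were found among annotated transcripts with BLAST+ 2.17.0 (at least 90% identity over 100 bases), and windows of 150 bases were compared exactly. Alternatives were RLE, upper-quartile and total-count scaling, scaling without mt genes, DESeq2 1.42.0, limma-voom (limma 3.58.1), no low-count filter, 1 CPM in 3 libraries, a block for the replicate number, a covariate for the suffix (L0 or L1) of the library name, and each library left out. The fit was also run on counts simulated from its own means and dispersions, with its outcome not reported here. Far fewer genes changed in that simulation than were called in the data, so it does not test these calls.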

Additional observations from a re-analysis of the deposited data

How the results depend on the processing

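The number of mitochondrial genes called higher was 11 to 14 with 1 library left out and 12 to 14 under the other alternatives, and 0 were lower in each. Each of mt-Rnr1, mt-Rnr2, mt-Nd2, mt-Nd3, mt-Nd5, mt-Nd6, mt-Co1, mt-Cytb, mt-Tn and mt-Tp kept its call in all 16 alternatives. The filter of 1 CPM left mt-Atp6, mt-Nd4l and mt-Th untested. With the replicate block the count was 12. The labels state no pairing of samples by number. Deviations of same-numbered libraries correlated at -0.154, 0.0195 and -0.156, and not every library correlated best with its own number. These deviations were taken from the mean of few libraries per genotype, so they cannot decide whether samples were paired. In the lists of mitochondrial genome expression and upkeep, 2 genes were lower under upper-quartile scaling, limma-voom and no low-count filter, against 1, and 1 to 2 with a library left out. Without mt-Co1 in the library size, 5 mitochondrial genes and 24 genes of those lists were higher relative to mitochondrial mRNA, against 3 and 15. The share of all genes higher in that fit is not given. The tRNA ratio was 2.73 to 3.01 with a library left out. With genes that share windows with a copy removed, the ratio of shares, knockout over wild type, was 0.79 for mt-Nd1, 0.98 for mt-Nd2, 1.07 for mt-Nd5 and 1.08 for mt-Cytb, against 0.74, 0.92, 1.01 and 1.02, because the denominator lost mt-Co1 and mt-Nd4.

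Signs changed only for genes that did not pass, and the cause was not tested. Log2 fold changes were -0.0327 for Gabpb1 and -0.0468 for Ssbp1 under upper-quartile scaling. Under limma-voom they were -0.22 for Mterf1a, -0.17 for Ssbp1, 0.0070 for Mtrf1l, 0.0155 for Mterf2 and 0.0165 for Gabpa. With total-count scaling they were 0.0072 for Mtrf1l and 0.0224 for Gabpa, and with the replicate block -0.0038 for Ssbp1. With 1 library left out they ran from -0.0044 to 0.0409 for Gabpb1, -0.11 to 0.13 for Ssbp1, -0.14 to 0.15 for Mtrf1l, -0.14 to 0.0572 for Mterf2, -1.55 to 0.29 for Lars2, -0.0118 to 0.16 for Atp5j and -0.0282 to 0.0290 for Gabpa. Relative to mitochondrial mRNA they ran from -0.0536 to 0.26 for mt-Tn, -0.11 to 0.23 for mt-Tc, -0.19 to 0.46 for mt-Th and -0.0180 to 0.0484 for mt-Nd5. Of nuclear genes not called, Mterf1b passed with the filter of 1 CPM (0.80, edgeR adjusted p = 0.0495), Nrf1 (-0.31, adjusted p = 0.0388) and Tfb2m (0.52, 0.0095) under limma-voom. Rows with fewer than 30 counts a library have wide intervals.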
